A study of Chlamydomonas reinhardtii with 6 samples.

Results

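Among the 13452 genes with values in this comparison of UV-B with no UV-B in the green alga Chlamydomonas reinhardtii, 83 carry the annotation category of protein posttranslational modification, which in this annotation holds mainly protein kinases and protein phosphatases. These 83 genes were chosen from the authors' deposited table of 2596 differentially expressed genes by their category name, so each was selected on its measured response to UV-B, and 884 genes of that table have any category. Genes outside the table carry no category in the sources used here, so kinases and phosphatases that did not respond cannot be counted, and the directions and fold changes of the 83 genes are given as a description with no p-value. The category label was checked against the protein domain names listed for each gene. A protein kinase domain was listed for 65 genes, and 1 of these 65, Cre17.g715700, also had the domain of a PP2C phosphatase. A further 8 genes list domains of other parts of the same machinery. They are classed as 3 PP2C phosphatases, 1 activator of a phosphatase (PTPA) and 1 RIO1-type atypical kinase. The others are classed as 2 beta subunits of AMP-activated kinase (AMPK) and 1 beta subunit of casein kinase 2 (CK2). Of the AMPK pair, Cre12.g484350 lists only a glycogen-binding domain, so its place among the subunits rests on that domain. The remaining 10 genes list no kinase or phosphatase domain: 3 encode methionine sulfoxide reductases and 7 have no listed domain at all. For those 7 the domain names can neither bear out nor contradict the label.

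Protein kinases transfer phosphate to serine, threonine or tyrosine residues of other proteins, and protein phosphatases remove it. Kinases often act in cascades in which each one switches on the next, and regulatory subunits set where and when a catalytic subunit works. In Chlamydomonas, a single-celled alga used to study photosynthesis and cilia, kinases are known to take part in acclimation of the photosynthetic apparatus to light, in nutrient sensing, in the cell cycle and in the assembly and length of cilia.

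RNA came from 6 standing wild-type cultures (strain CC-125, 137c mt+), grown for 4 days as 15 mL in deep dishes of the acetate medium TAP. All cultures stood under dim light (3.6 µmol per square metre and second) and narrowband UV-B tubes (0.07 mW/cm2) for 1 h before 2 mL were collected. In the 3 UV-B cultures the cells lay behind a filter with its cut-off at 311 nm, and in the 3 no UV-B cultures behind one with its cut-off at 360 nm that keeps UV-B out. The filters differ in all light between these wavelengths, so UV-B and the neighbouring near-ultraviolet cannot be told apart. Assigned reads numbered 9529134 to 11214409 in the UV-B libraries and 7868534 to 11972794 in the no UV-B libraries. The normalised read counts used here are on a scale like CPM (counts per library total), on which 1 read is worth 0.0828 to 0.132 depending on the library. They are relative to each library, so they show neither a change in cell number nor one in total RNA per cell, and for a single gene, fewer cells holding its RNA and less of it per cell cannot be told apart. Since gene lengths were not at hand, differences in count between genes are not read as differences in transcript level.

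Of the 83 genes of the category, transcripts of 57 were lower and those of 26 were higher after 1 h of UV-B, and of the 73 with a kinase or phosphatase domain or subunit, 54 were lower and 19 were higher. In the fit across 13415 genes (limma on log2(value + 1), Benjamini-Hochberg adjusted p under 0.05), 26 of the 83 genes were called raised, against 29.5% of all genes tested, and 57 were called lowered, against 29.6% of all genes tested. The authors' own list holds 9.67% of the 13452 genes as induced and 9.63% as repressed. Because the list itself chose the 83 genes, nothing can be read from these shares about kinases and phosphatases as a class. The 3 UV-B libraries all lay above the 3 no UV-B libraries for 25 of the 26 genes that rose. They all lay below for 56 of the 57 that fell. The groups overlapped for the other 2 genes, Cre08.g375650 and Cre16.g666300. Over all genes tested, whichever way they moved, 31.7% lay wholly above and 31.6% wholly below. The 83 genes were chosen for a change in these same libraries, so their separation was largely built in and is not comparable with these shares.

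Rises and falls covered similar ranges. Among the 26 genes that rose, the level with UV-B over that without had a median ratio of 2.52 and ran between 2.01 and 7.21. Among the 57 genes that fell, the level was lower with UV-B by a median of 2.49-fold, with a range of 1.98-fold to 10.8-fold. A change of at least 4-fold was seen for 4 genes that rose and for 7 genes that fell. On the log2(value + 1) scale, where added pseudocounts shrink the change of genes with few reads, the median difference was 1.02 among the genes that rose and -1.12 among those that fell, and the median over all 83 genes was -0.99, against 0.48 over the 2588 listed genes in the fit and 0.00 over all genes tested. Since every listed gene changed by about 2-fold or more, the medians over listed genes restate which direction was the more frequent. Unless credited to the authors, log2 fold changes of single genes are also on the log2(value + 1) scale. For genes with few reads they are smaller in size than the log2 of the ratio of means. Read support was moderate, at a median of 100.2 reads for each gene in a library (60.3 for genes that rose, 135 for genes that fell). The mean level lay under 5 in both groups for 23 of the 83 genes, and the coefficient of variation between cultures had a median of 10.5% with UV-B and 10.9% without.

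**Figure D1:**
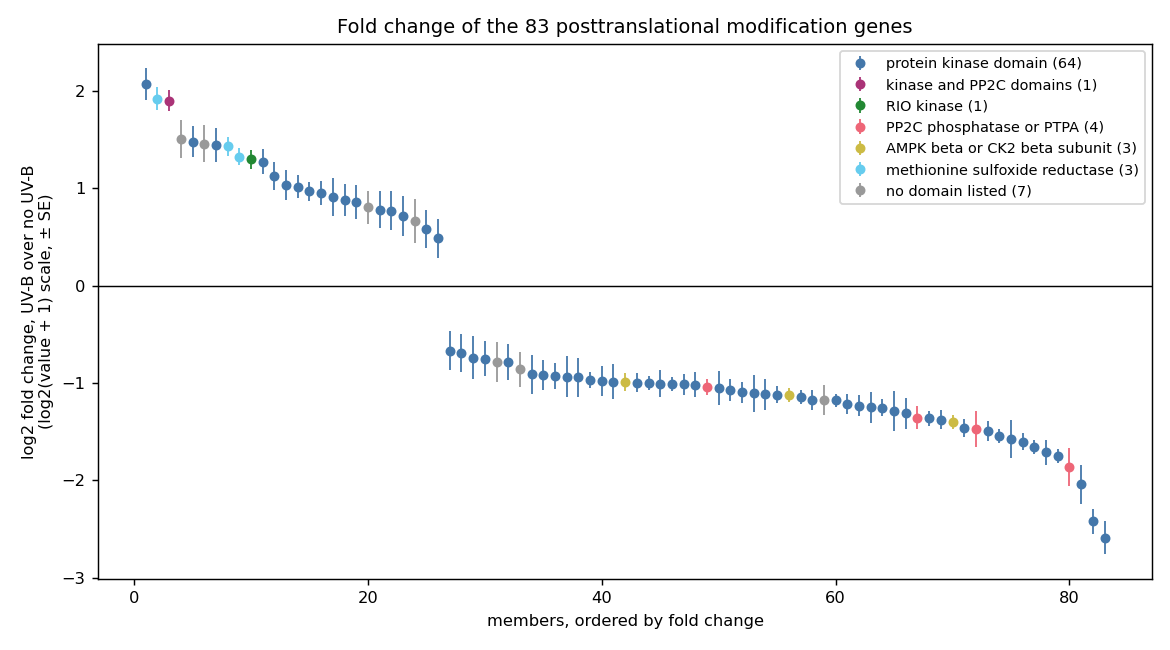
Log2 fold change, UV-B over no UV-B on the log2(value + 1) scale, of each of the 83 genes in order of size (points, coloured by annotated class, with bars of ± 1 SE; 3 libraries per group). All 3 methionine sulfoxide reductases and the RIO kinase lie above 0. All 4 genes of the PP2C and PTPA class and all 3 classed as regulatory subunits lie below 0.

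The kinase genes as a sum show the same balance. The normalised counts of the 65 genes with a kinase domain added up to 1153, 1144 and 1214 in the UV-B libraries, against 2575, 2573 and 2649 in the no UV-B libraries, with means of 1170.3 ± 38.3 with UV-B and 2599 ± 43.5 without (SD, n = 3 each). The libraries of a group lay close together and the groups were far apart. The 18 kinase genes that rose added up to 213 ± 10.6 with UV-B and 81.6 ± 4.27 without (SD, n = 3 each), and the 47 that fell added up to 958 ± 42.5 with UV-B and 2518 ± 41.1 without (SD, n = 3 each). One gene, Cre07.g348450, weighs heavily in this sum, and without it the remaining 64 genes added up to 967 ± 20.7 with UV-B and 1918 ± 33.7 without (SD, n = 3 each), a ratio of 0.504 in place of 0.450. These sums follow from the directions that the choice of genes fixed and carry no test. They add counts without correction for gene length, so genes with many reads weigh most.

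**Figure D2:**
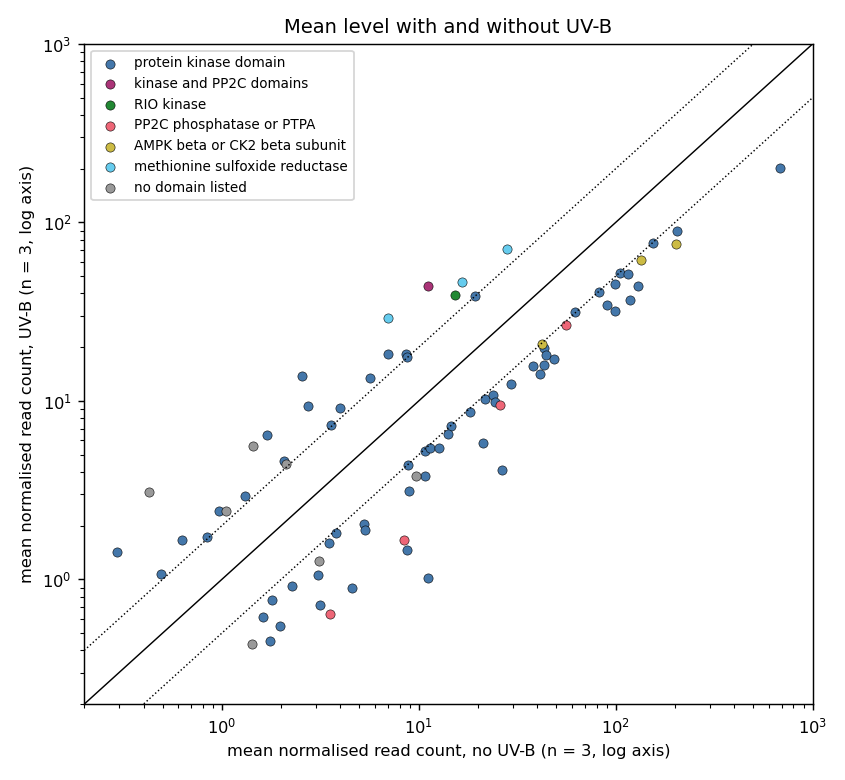
Mean normalised read count of each gene with UV-B (vertical, log axis) against without UV-B (horizontal, log axis), n = 3 libraries each, coloured by annotated class; the solid line marks equal levels and the dotted lines a ratio of 2 in either direction. Points above the solid line are the 26 genes that rose and points below it the 57 that fell; the point furthest to the right is Cre07.g348450, at 203 with UV-B and 681 without.

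Of the 12 kinase genes whose description names a kinase or a kinase family, 11 fell and 1 rose. They include members of signalling cascades. Cre12.g545950, described as a mitogen-activated protein kinase kinase kinase (MAPKKK), the kind of kinase that starts a MAP kinase cascade, had 3.96, 3.92 and 4.39 normalised counts in the UV-B libraries, against 30.7, 25.5 and 23.0 in the no UV-B libraries. All 3 UV-B values lay far below every no UV-B value, and the means of 4.09 ± 0.261 with UV-B and 26.4 ± 3.92 without (SD, n = 3 each) correspond to a level 6.46-fold lower with UV-B (log2 fold change -2.42 ± 0.13, SE). Cre13.g607300, described as a mitogen-activated protein kinase (MAPK), the kind that ends such a cascade and phosphorylates its targets, had 5.84, 4.02 and 5.80 normalised counts with UV-B and 10.5, 9.37 and 12.2 without. Its groups did not overlap, but the gap was small beside that of the MAPKKK gene, at 2.05-fold lower (log2 fold change -0.92 ± 0.15). A further kinase gene, Cre12.g530000, is placed under MAP kinase signalling and not among the 83. It too was lower with UV-B, at a mean of 39.9 ± 1.85 against 89.2 ± 2.29 without (SD, n = 3 each). Its log2 fold change was -1.14 ± 0.08. The middle tier of the cascade is not named in the description of any of the 83 genes.

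Genes described by kinase families of the cell cycle and of cilia fell as well. Cre06.g271100, described as a cyclin dependent kinase, a family that drives cell cycle steps or transcription once bound to a cyclin, had 44.8, 40.3 and 49.8 normalised counts in the UV-B cultures and 88.0, 103 and 106 in the no UV-B cultures. The lowest culture without UV-B still lay well above the highest with UV-B, and the level was 2.20-fold lower with UV-B (log2 fold change -1.12 ± 0.09). Cre12.g498650 is described as an Aurora-like kinase. Aurora kinases act in mitosis in animals and yeasts, and an Aurora-like kinase takes part in flagellar disassembly in Chlamydomonas. Its values were 37.2, 36.5 and 48.1 with UV-B and 75.6, 73.2 and 97.1 without. Replicate 3 was the highest library of both groups, and the groups did not overlap. The level was 2.02-fold lower with UV-B and fell by 1.00 ± 0.10 (SE) on the log2 scale.

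NIMA-related kinases act in mitosis in fungi and animals, and in Chlamydomonas members of the family act in the shedding and the length of flagella. Cre07.g351150, described as a NIMA family kinase of flagellar function, had 7.73, 5.47 and 6.46 normalised counts with UV-B and 12.2, 16.0 and 14.3 without. The spread between cultures was wide in both groups, yet each UV-B culture lay below all no UV-B cultures (2.16-fold lower with UV-B, log2 fold change -1.01 ± 0.14). Cre02.g075350, described as a NIMA-related kinase, was measured with 25.5 reads per library and had 1.51, 1.96 and 1.33 with UV-B and 3.95, 2.77 and 3.74 without. The highest UV-B value and the lowest no UV-B value lay close together here (2.18-fold lower with UV-B, log2 fold change -0.79 ± 0.19).

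The other described kinases are named by the residue they act on. Cre07.g337300 is described as a dual-specificity tyrosine-regulated kinase (DYRK), a family that in animals and yeasts phosphorylates itself on tyrosine and its targets on serine or threonine. It had 49.9, 54.0 and 51.0 normalised counts with UV-B, against 116, 111 and 119.5 without. The cultures of each group were tightly grouped and the groups were wide apart, with a level 2.24-fold lower with UV-B (log2 fold change -1.15 ± 0.07). Of the pair described as serine/threonine protein kinases, Cre12.g555800 fell the more, to a mean of 5.80 ± 0.734 with UV-B, against 21.2 ± 0.651 without (3.66-fold lower, log2 fold change -1.71 ± 0.12). Cre12.g516600 fell to 10.2 ± 0.579 with UV-B, against 21.6 ± 0.789 without (2.12-fold lower). Cre03.g166750, a putative tyrosine kinase, had 33.5, 33.8 and 36.8 with UV-B and 94.3, 85.6 and 92.1 without, with no overlap (2.61-fold lower, log2 fold change -1.36 ± 0.08). Of the pair described as protein tyrosine kinases, Cre17.g742400 fell, to 1.05 ± 0.0986 with UV-B, against 3.06 ± 0.230 without. The other of this pair, Cre10.g462050, was the 1 described kinase that rose, with 9.61, 9.18 and 8.70 normalised counts with UV-B and 3.29, 4.35 and 4.32 without. Every UV-B culture lay above every no UV-B culture, at a ratio of 2.30 (log2 fold change 1.03 ± 0.15). Its first listed domain is that of a serine/threonine kinase, while its description names a tyrosine kinase. It lists 19 domain names, and those after the first were not compared with the description. Cre17.g713050 is described as DnaJ-like, the name of a co-chaperone family, although its domain list holds kinase profiles, and it fell to 0.721 ± 0.426 with UV-B, against 3.16 ± 0.787 without, on 19.2 reads per library.

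**Figure D3:**
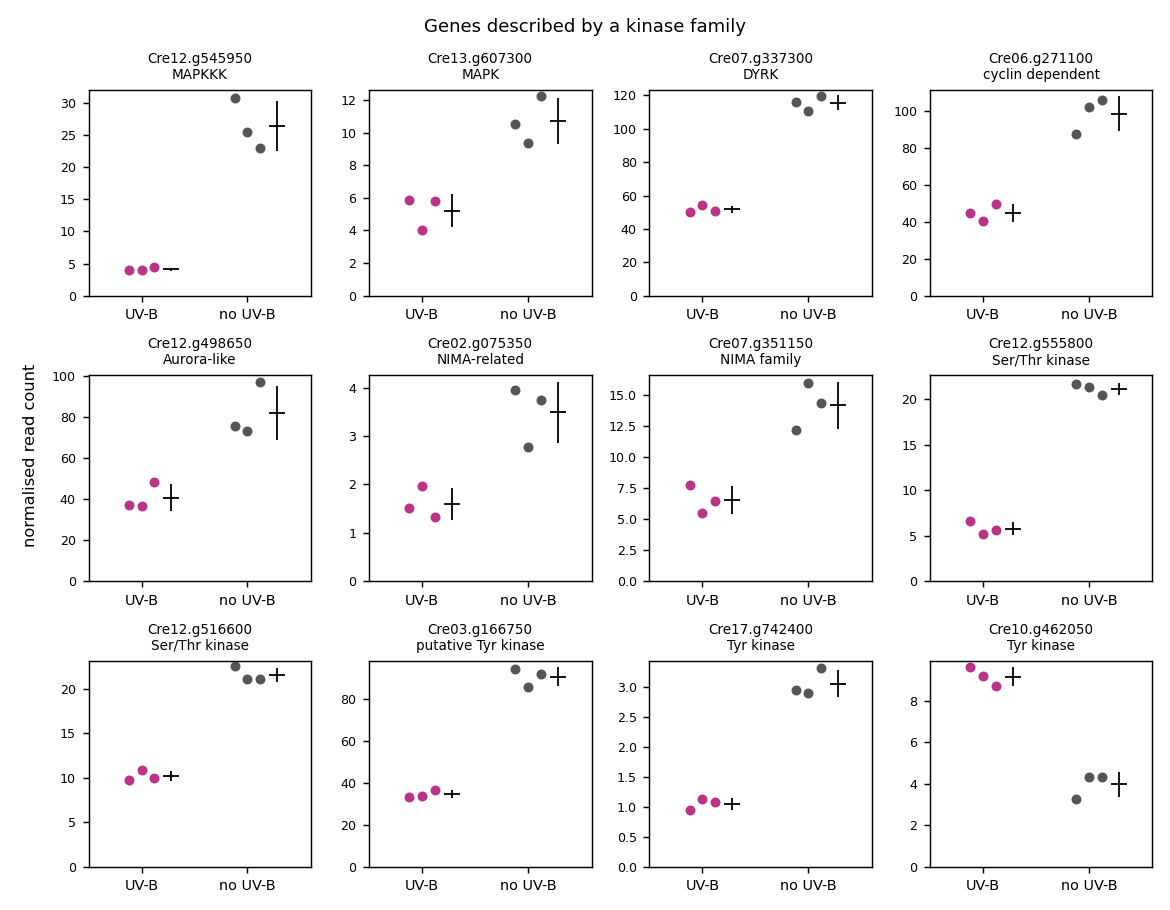
Normalised read count of the 12 genes described by a kinase or kinase family, in each UV-B library (left, coloured) and each no UV-B library (right, grey); crosses mark the mean and bars ± 1 SD (n = 3), and each panel has its own axis from 0. The groups are separate in every panel, and Cre10.g462050 in the last panel is the 1 gene of the 12 that is higher with UV-B.

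Kinase genes without a description changed as widely. Cre01.g036650, whose domains are those of a serine/threonine kinase, had the largest fall of the 83 genes. Its normalised counts were 1.41, 0.825 and 0.828 in the UV-B libraries, against 9.98, 10.8 and 12.5 in the no UV-B libraries. Counts stayed near 1 in all 3 UV-B cultures, and the level was 10.8-fold lower. On the log2(value + 1) scale the change was -2.59 ± 0.17 (SE), and the authors' deposited log2 fold change was -3.45. g11497, also with serine/threonine kinase domains, had 0.754, 1.13 and 2.48 with UV-B and 8.88, 7.65 and 9.56 without. UV-B replicate 3 was the highest of its group and still far below the no UV-B cultures (5.97-fold lower, log2 fold change -2.04 ± 0.20). Cre07.g348450 drew the most reads of the 83 genes, 4369 per library. It had 189, 195 and 225 normalised counts with UV-B and 678, 673 and 692 without. The no UV-B cultures differed little among themselves, UV-B replicate 3 was the highest of the UV-B cultures, and the level was 3.36-fold lower with UV-B (log2 fold change -1.75 ± 0.07).

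Further falls were of about 3-fold. Cre08.g380600 had 36.5, 36.2 and 38.2 normalised counts with UV-B and 116, 118 and 121 without, a level 3.21-fold lower with UV-B. g14921 had 30.6, 28.7 and 36.9 with UV-B, against 92.7, 103 and 101 without, a level 3.09-fold lower. In both genes the groups were far apart, and the domain lists of both name serine/threonine kinases without a family. Cre12.g493250 lists a cyclic nucleotide binding domain (CAP_ED) beside its kinase domains, a pairing known from cyclic GMP-dependent protein kinases in animals and protists. It had 43.8, 46.1 and 42.6 normalised counts with UV-B and 125, 131 and 135 without, with all UV-B cultures far below (2.96-fold lower, log2 fold change -1.54 ± 0.07). Cre09.g414650 averaged 14.1 ± 1.66 with UV-B and 41.3 ± 1.64 without (SD, n = 3 each), and g16674 averaged 17.1 ± 0.661 with UV-B and 48.8 ± 3.09 without (SD, n = 3 each). Among the genes with most reads, g9690 averaged 89.8 ± 3.52 with UV-B and 205 ± 8.12 without (SD, n = 3 each), and Cre12.g535100 averaged 76.7 ± 3.62 with UV-B and 155 ± 2.86 without (SD, n = 3 each), with no overlap for either gene.

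Kinase genes also rose, 18 of the 65. On the log2(value + 1) scale, though not by ratio of means, g6406, with serine/threonine kinase domains, led the rises. It had 12.7, 15.3 and 13.2 normalised counts in the UV-B cultures, against 1.97, 3.56 and 2.16 in the no UV-B cultures. The highest no UV-B culture stayed far below the lowest UV-B culture, and the level was higher with UV-B by a ratio of 5.35 (log2 fold change 2.07 ± 0.16). Cre17.g715700, described as a phosphoprotein phosphatase 2C but listed with both a PP2C and a kinase domain, had 43.4, 47.8 and 41.2 with UV-B and 9.43, 12.1 and 11.8 without. It is the 1 gene of the 83 that joins the domains of both kinds of enzyme, and the 1 gene with a phosphatase domain that rose, at a ratio of 3.97 (log2 fold change 1.90 ± 0.11). Cre17.g719450 had 10.1, 8.66 and 9.44 with UV-B, against 3.07, 2.24 and 2.91 without. g11516 had 7.82, 5.67 and 5.80 with UV-B and 1.86, 1.58 and 1.66 without. Both are listed as serine/threonine kinases without a named family, and in both the UV-B cultures lay clear of the others (ratios of 3.43 and 3.77). Cre17.g710000 had 20.7, 16.4 and 17.7 with UV-B and 7.35, 6.20 and 7.32 without, a ratio of 2.63. g2913, led by the general kinase profile, had 14.3, 13.3 and 12.7 with UV-B and 4.72, 5.41 and 6.90 without, a ratio of 2.37. Over the 18 kinase genes that rose, the fusion included, the median ratio was 2.33.

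Some large ratios rest on few reads. g683, a kinase gene that rose, had 1.41, 1.44 and 1.41 normalised counts with UV-B and 0.329, 0.132 and 0.416 without, on 9.17 reads per library. The UV-B cultures were nearly alike and clear of the others, at a ratio of 4.86, but on the log2(value + 1) scale the rise was 0.91 ± 0.20. Cre16.g694550, a kinase gene that fell, had 0.565, 0.722 and 1.41 with UV-B and 4.28, 4.75 and 4.66 without, on 26.8 reads per library. UV-B replicate 3 was the highest of its group, and the level was 5.08-fold lower with UV-B (log2 fold change -1.58 ± 0.19). The next 5 kinase genes were measured with more reads. Cre16.g676300 rose to 18.4 ± 0.467 with UV-B, against 8.62 ± 1.11 without, and g6373 rose to 17.7 ± 1.47 with UV-B, against 8.73 ± 1.34 without. Cre04.g211600 fell to 52.3 ± 3.65 with UV-B, against 105 ± 0.595 without, and g2888 fell to 15.7 ± 1.21 with UV-B, against 37.9 ± 5.55 without. Cre09.g387950 fell to 12.5 ± 1.03 with UV-B, against 29.3 ± 0.813 without (SD, n = 3 in each group for these 5 genes). These genes have no description beyond its kinase domains.

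Cre13.g580900 is listed as a RIO1-type kinase, an atypical kinase that in yeast and human cells acts in the maturation of the small ribosomal subunit. It had 38.0, 40.5 and 39.0 normalised counts with UV-B and 15.9, 14.8 and 15.4 without. Cultures of a group were almost alike, and the level was higher with UV-B at a ratio of 2.55 (log2 fold change 1.30 ± 0.09). A gene of the sister type, the RIO2-type Cre03.g159900, has no category and is not among the 83. It also rose, to a mean of 9.61 ± 1.66 with UV-B, against 3.70 ± 0.58 without (SD, n = 3 each; log2 fold change 1.17 ± 0.16).

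Among the 83 genes, all chosen for a change, the 3 PP2C genes, the PTPA gene and the 3 genes classed as regulatory subunits fell. The kinase and PP2C fusion rose. PP2C enzymes are metal-dependent serine/threonine phosphatases that in yeast and land plants switch off stress-activated kinases. Cre03.g201400, described as a phosphoprotein phosphatase 2C, fell the most of the 3 PP2C genes, with 1.04, 1.24 and 2.73 normalised counts in the UV-B cultures and 7.57, 7.92 and 9.65 in the no UV-B cultures. UV-B replicate 3 stood above the other UV-B cultures, and all were far below the no UV-B cultures (5.02-fold lower, log2 fold change -1.86 ± 0.19). g5066 had 11.1, 9.08 and 8.28 with UV-B and 24.7, 27.6 and 25.0 without, a level 2.71-fold lower. g4755 had 27.0, 26.7 and 26.5 with UV-B, against 57.6, 53.6 and 56.6 without, a level 2.09-fold lower with UV-B values nearly identical to each other. Outside the 83 genes, the PP2C genes g6401 and Cre12.g501950, which have no category, were also lower with UV-B, with log2 fold changes of -0.93 ± 0.19 and -0.90 ± 0.19. Cre13.g580650 is listed as PTPA, which in yeast and mammals activates protein phosphatase 2A. It had 0.471, 0.619 and 0.828 with UV-B and 3.51, 3.96 and 3.16 without, on 20.2 reads per library. Each UV-B value lay far below every no UV-B value (5.54-fold lower), but the number of reads limits the precision.

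AMPK and its plant relatives sense low energy, and their beta subunit joins the catalytic and the gamma subunit and can bind starch or glycogen. Cre10.g457500, with the glycogen-binding and the interaction domain of an AMPK beta subunit, had 70.9, 74.5 and 82.2 normalised counts with UV-B and 206, 199 and 199 without. Cre12.g484350, with the glycogen-binding domain alone, had 60.7, 57.5 and 65.8 with UV-B and 137, 137 and 129.7 without. In both genes the groups were wide apart, with levels 2.66-fold and 2.19-fold lower with UV-B (log2 fold changes -1.40 ± 0.07 and -1.12 ± 0.07). g395 is listed as a CK2 beta subunit, the regulatory part of a kinase that is always active and has very many substrates. It had 18.8, 22.8 and 20.9 with UV-B and 44.8, 42.1 and 39.8 without, a level 2.03-fold lower (log2 fold change -0.99 ± 0.09).

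All 3 methionine sulfoxide reductase genes of the category rose. These enzymes, which are neither kinases nor phosphatases, reduce methionine that has been oxidised in proteins, the MsrA type acting on the S form of the sulfoxide and the SelR (MsrB) type on the R form. Cre06.g257650, of the MsrA type, had 32.4, 27.8 and 27.2 normalised counts in the UV-B cultures and 6.03, 8.31 and 6.65 in the no UV-B cultures. The UV-B cultures lay far above the others, at a ratio of 4.17 (log2 fold change 1.92 ± 0.12). Cre10.g464850, also of the MsrA type, had 74.4, 66.9 and 72.7 with UV-B and 25.6, 31.4 and 26.9 without. Cre01.g042050, of the SelR type, had 47.4, 45.7 and 45.1 with UV-B and 16.6, 14.9 and 18.0 without. The groups were separate in both, at ratios of 2.55 and 2.79. Reductase genes that did not respond carry no category in the sources used here, so the 3 do not show the response of the whole family.

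**Figure D4:**
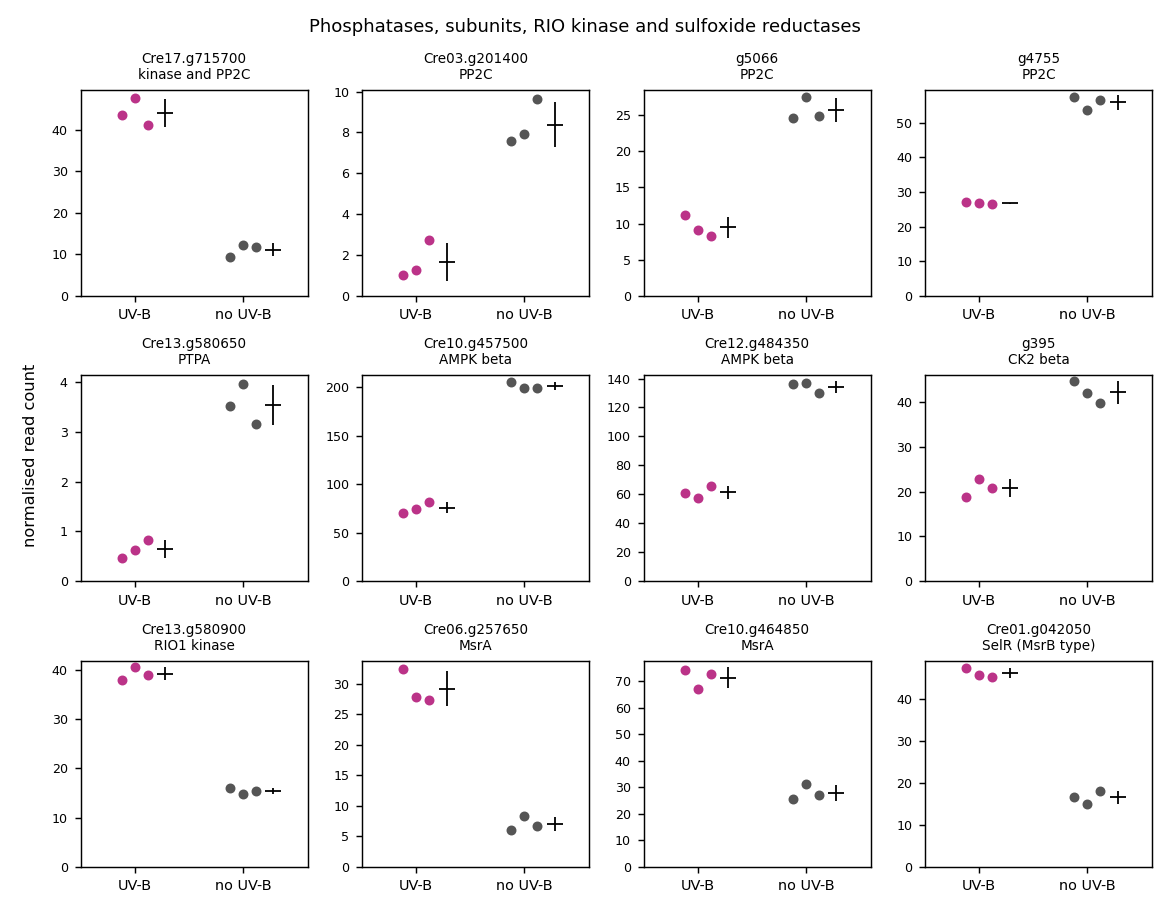
Normalised read count of the 12 genes of the category that are not plain protein kinases and have a listed domain, in each UV-B library (left, coloured) and each no UV-B library (right, grey); crosses mark the mean and bars ± 1 SD (n = 3), and each panel has its own axis from 0. The PP2C, PTPA and beta subunit genes are lower with UV-B, and the fusion gene, the RIO1 kinase and the reductases are higher.

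Of the 7 genes with no listed domain, 4 rose and 3 fell, and for them the category name is all the annotation says. g11520 had 6.60, 4.85 and 5.38 normalised counts with UV-B and 1.21, 2.11 and 0.998 without, a ratio of 3.90. Cre08.g369200 had the highest ratio of the 83 genes, 7.21, on 18.7 reads per library, with 3.77, 3.09 and 2.40 with UV-B and 0.439, 0.264 and 0.582 without. Cre08.g375650 is the gene that rose although its groups overlap. Its values were 1.41, 1.75 and 4.06 with UV-B and 0.877, 0.792 and 1.50 without. UV-B replicate 3 alone stands high, and without that library the log2 fold change was 0.34 in place of 0.67 and was no longer called. Of the 3 that fell, Cre09.g410300 had the most reads and averaged 3.80 ± 0.830 with UV-B and 9.74 ± 0.753 without (SD, n = 3 each), a level 2.56-fold lower. g4567 was 3.29-fold lower with UV-B, on 9 reads per library.

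**Figure D5:**
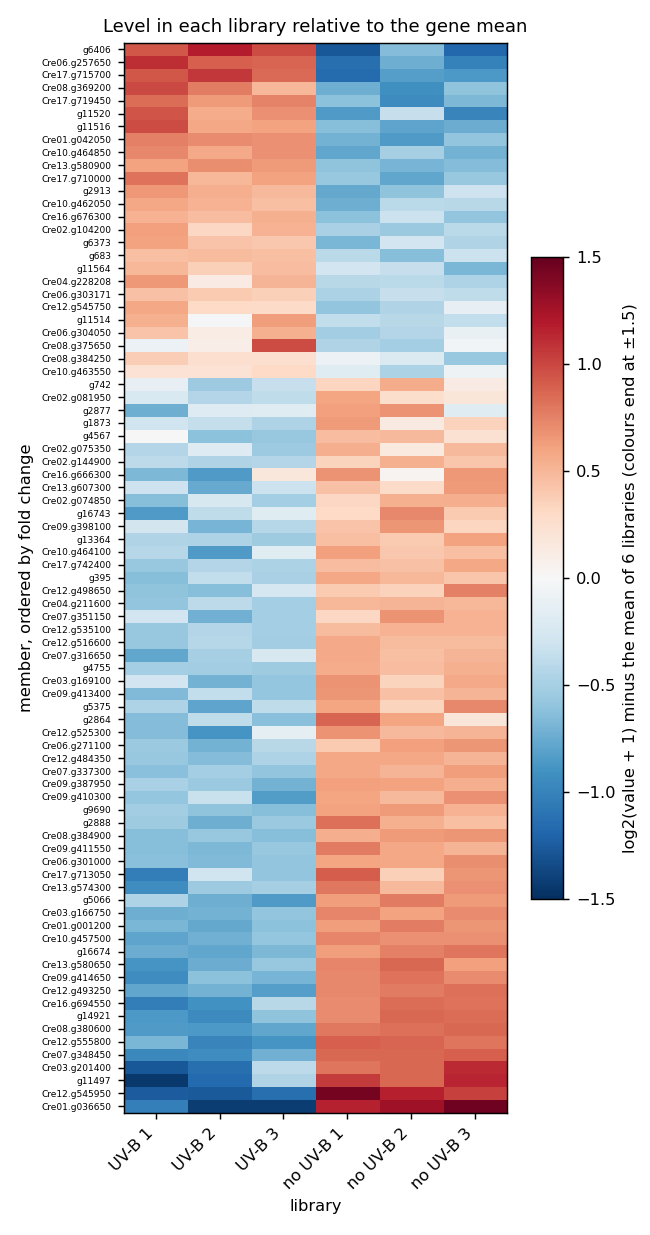
Level of each of the 83 genes (rows, ordered by fold change) in each library (columns, UV-B replicates 1 to 3 and then no UV-B replicates 1 to 3), as log2(value + 1) minus the mean of the 6 libraries of that gene, with colours ending at ± 1.5. The 3 libraries of a group resemble each other in nearly all rows, and single libraries stand apart in a few, such as UV-B replicate 3 for Cre08.g375650 and Cre16.g666300.

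The first domain profile listed for a kinase gene was not used to choose the genes, and the directions differ with it as follows. Of the 51 kinase genes led by a serine/threonine profile, 15 rose and 36 fell. Of the 11 led by a tyrosine kinase profile, 0 rose and 11 fell. Both genes led by the general kinase profile rose. The genes led by a tyrosine profile fell by 2.01-fold to 3.87-fold, with Cre01.g001200 among the better measured at 16.0, 15.1 and 16.9 normalised counts with UV-B, against 41.2, 45.7 and 42.3 without. Cre06.g301000 had 18.0, 17.5 and 18.5 with UV-B and 43.3, 43.0 and 46.6 without, and g5375 had 20.8, 16.4 and 22.1 with UV-B and 44.3, 36.9 and 48.7 without. The 3 genes show groups far apart. Tyrosine-led genes list a median of 59 domain names and serine/threonine-led genes 9. The sources used here do not state whether the first listed profile is the best match. Cre10.g462050, described as a protein tyrosine kinase, is led by a serine/threonine profile and rose. A profile name is a match to a family model and does not show which residue the enzyme phosphorylates. These 11 genes are few and were selected on the response, so the difference from the other kinases was not tested.

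Where the genes met the authors' limit narrowly, the fold changes were near 2. In the authors' deposited table the smallest log2 fold changes of the 83 genes were those of Cre16.g666300, which fell by 1.00, of Cre02.g104200, at 1.00, and of g13364, which fell by 1.01. Cre16.g666300, led by a tyrosine kinase profile, had 3.39, 2.89 and 6.87 normalised counts with UV-B and 10.2, 6.20 and 10.1 without. UV-B replicate 3 lies above no UV-B replicate 2, so its groups overlap. Cre02.g104200 had 42.6, 34.2 and 39.6 with UV-B and 19.2, 18.2 and 20.5 without, and g13364 had 32.0, 31.9 and 30.2 with UV-B and 60.7, 58.6 and 67.6 without, both without overlap. Genes just outside the limit have no category in the sources used here and are not given.

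Set beside signalling, protein degradation and the pool of all other genes with a category in the authors' deposited table, the share of genes that rose was low. In the posttranslational modification category 31.3% of 83 genes had a positive fold change there, against 58.1% of 31 signalling genes, 49.2% of 65 protein degradation genes and 55.9% of the 801 other genes with a category. The pool of 801 includes the signalling and protein degradation genes, and no further single category was compared. Over all 2596 genes of the table the share was 50.1%. Within signalling, 6 of 7 G-protein genes and 5 of 7 genes of the light class had a positive fold change. Of the 7 genes placed under receptor kinases, which list no kinase domain, 2 had a positive fold change and 5 a negative one. Among these, 4 of 5 genes of one leucine-rich repeat class had a negative one. The 1 gene under MAP kinases had a negative fold change. No test of these shares was made, since every gene counted was selected on the same contrast.

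Kinase and phosphatase genes also stand in the authors' table under other categories or none. A search of descriptions and domain names for a short list of terms, made after values were seen, found 8, of which 3 rose and 5 fell. The terms left out some phosphatase types and AMPK subunits, so the 8 need not be all such genes. The 7 genes placed under receptor kinases are not counted among the 8, since none of them lists a kinase domain. Cre12.g483650, a kinase placed under state transitions, the process that moves light-harvesting complexes between the photosystems, had 146.9, 151.5 and 145.4 normalised counts with UV-B, against 39.9, 43.1 and 44.1 without. Its cultures were tight and the groups wide apart, at a ratio of 3.49 (log2 fold change 1.78 ± 0.07). Cre09.g407800, described as an ABC1 or COQ8 type kinase, a family tied to quinones of mitochondria and plastids, rose to a mean of 68.1 ± 1.89, against 24.4 ± 1.42 without (SD, n = 3 each). Cre02.g105600, an ABC1 type kinase described for eyespot assembly, fell to 45.7 ± 3.06 with UV-B, against 92.5 ± 8.97 without. Cre09.g403050, a dual-specificity phosphatase placed under starch breakdown, fell to 13.5 ± 1.21 with UV-B, against 28.1 ± 1.59 without.

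The genes are spread over the genome as far as the RefSeq gene table of assembly Chlamydomonas_reinhardtii_v5.5 shows it. It matched 56 of the 83 genes, placed 9 on chromosome 12 and put none of them directly beside another (0 adjacent pairs), and the other 27 genes were not matched. Of the 3 closest pairs, 2 moved in opposite directions. The MAPKKK gene Cre12.g545950, which fell, and the kinase gene Cre12.g545750, which rose, have 3 genes between them. The PTPA gene Cre13.g580650, which fell, and the RIO1 gene Cre13.g580900, which rose, have 4 genes between them. Cre02.g074850 and Cre02.g075350, which both fell, have 10 genes between them.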

How the data were processed

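RNA of 3 UV-B and 3 no UV-B cultures was sequenced from libraries made with a stranded mRNA kit from 400 ng of total RNA, per the labels' protocols. The tools were TopHat2, HTSeq (0.5.3p9) and edgeR (3.4.2), per the submitters' processing notes; genome build, gene models and strand setting: not given in the sources used here. Genes that overlap or resemble each other may share reads. The authors deposited a signal per gene for 13452 genes, which is a read count scaled by the effective size of its library. The authors deposited, for 2596 genes, log2 fold changes, log2 CPM and p-values of their own comparison, with descriptions, domain names and categories. Groups came from the sample titles and descriptions, and the labels describe the cultures as independent.

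Because the signal is normalised, the main test was limma 3.58.1 (R 4.3.3) with a mean-variance trend on log2(value + 1), for the 13415 genes that reached 1 in 3 or more libraries, without covariates, with Benjamini-Hochberg adjustment and a threshold of 0.05. All 83 category members passed the filter. Fold changes are limma coefficients with moderated standard errors; ratios are of group means. Values were whole multiples of 1 read to within 0.001 reads for 100% of genes in each library, and edgeR 4.0.16 and DESeq2 1.42.0 were run on the recovered reads as alternatives. Counting error is largest for genes of few reads. Scripts were tested on simulated data; tables were made with Python 3.11.15 and pandas 2.3.3.

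The category members and the lists were chosen with earlier results of these data known. Named genes are the 12 largest rises and 12 largest falls with a mean of at least 5 in 1 group, the 5 genes with the highest mean, all phosphatases, all genes with a description and the 3 nearest the authors' limit; others were chosen after their values were seen. Motif lists from protein sequences were not used here. Alternatives were other pseudocounts, filters, scalings, no trend, a replicate block, each library left out, the count tests and a threshold of 0.01.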

Additional observations from a re-analysis of the deposited data

How the results depend on the processing

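All 26 rises and 57 falls kept their sign under every alternative that held all 83 genes. The genes were chosen for a change in these same libraries, so kept signs and calls were largely fixed by that choice. edgeR on recovered reads nearly repeats the authors' own comparison, with a median difference of 0.0054 in log2 fold change for the 83 genes. TMM scaling gave the same counts of calls as the main fit. Requiring a value of at least 5 in 3 libraries left 57 of the 83 genes in the fit, 15 of them raised and 42 lowered, since fewer genes were tested. Otherwise the number called raised stayed between 23 (adjusted p under 0.01) and 26, and DESeq2 on recovered reads gave 24, while 56 or 57 genes were called lowered. With only genes that list a kinase or phosphatase domain or subunit, chosen after seeing the data, 19 were raised and 54 lowered. Leaving out each library in turn gave 24 to 25 raised and 56 to 57 lowered category members, and 3626 to 3739 raised and 3598 to 3844 lowered genes over all. Cre10.g463550, Cre08.g375650, Cre08.g384250 and g2877 were not called under some alternative, and Cre08.g375650 depends on UV-B replicate 3 (log2 fold change 0.34 without it). Scaling to an equal total per library moved the median of all genes by 0.09 on the log2 scale, and raised genes then made up 58.7% of calls, against 49.9%.

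Deviations of same-numbered cultures correlated at 0.045, 0.024 and 0.120, not all above 0.1, so the numbers were not taken as pairs. UV-B replicates 1 and 3 correlated best with their own number and UV-B replicate 2 with no UV-B replicate 1 (0.060). With a replicate block, 4020 genes were called raised and 4082 lowered over all, against 3955 and 3965, and 26 and 57 of the category members. The lists by protein motif were not run, and for genes under about 10 reads per library depth limits the values.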
